A study of Mus musculus with 11 samples.

Results

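The comparison set 2 arrays of mouse embryonic stem cells (ESCs) labelled Bmpr1a-/- against 3 arrays of wild type E14 cells, an established mouse ESC line, with all cells grown in ESC medium. These 5 arrays were chosen by their titles from the 11 arrays of the series, and the mutant arrays carry the sample numbers 2 and 3. The other 6 arrays hold 3 of each genotype, kept 3 days in the serum-free medium N2B27, in which ESCs can differentiate, and they serve as the other medium. The question addressed is how receptor mutant ESCs differ from wild type ESCs while both are kept under self-renewing conditions. The labels name 3 mutant cell lines, C1-6, Fr124 and Fr88, without tying a line to an array, and they say neither what the ESC medium contains nor which part of Bmpr1a was removed. Nothing states that replicate arrays were grown as separate cultures, and the p-values therefore reflect only array-to-array spread, part of which may be technical.

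Bone morphogenetic proteins (BMPs) are secreted ligands that bring together type I and type II receptor kinases on the cell surface. Bmpr1a encodes a type I receptor, which phosphorylates SMAD1, SMAD5 and SMAD9, and these enter the nucleus with SMAD4 and switch on targets such as the Id genes, whose products block differentiation factors of the helix-loop-helix class. In ESCs, BMP signalling is known for holding cells in self-renewal together with the cytokine LIF and for restraining neural differentiation.

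Each value is a log2 signal relative to a baseline of its own gene, so arrays can be compared within a gene but genes cannot be ranked by level, and a log2 difference of 1 is a 2-fold difference. A gene was called where the adjusted p of its difference was under 0.05 in limma, with Benjamini-Hochberg adjustment over 19935 genes. Differences are mutant minus control over 2 mutant and 3 control arrays, and the number of arrays limits their precision. They are given with the standard error (SE) of the fit. The spread behind the SE was taken per gene from the arrays of both media together. The control is a different cell line from the mutants, so a genotype difference cannot be told apart from a difference between lines. With 3 arrays against 2, no exact two-sided rank test of a single gene can go below 0.2.

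The arrays of each genotype resembled one another more than those of the other genotype. Across all genes the standard deviation (SD) of the difference between arrays was 0.121 for control replicates 2 and 3, 0.154 for the mutant arrays, 0.203 and 0.218 for control replicate 1 against the other controls, and 0.272 to 0.335 for control against mutant. Control replicate 1 was also the control closest to the mutant mean in 660 of the 1224 called genes (53.9%), against 310 for replicate 2 and 254 for replicate 3. ESC identity was checked with 8 markers, whose summed value was 8.47 to 10.21 in control and 10.77 to 10.96 in mutant arrays. Only 1 of them, Zfp42, was called (higher in mutant), and it lies on chromosome 8, where most called genes rose. None of the 7 primitive endoderm, 7 trophoblast, 6 neural progenitor or 5 mesoderm markers was called. The summed value of the trophoblast markers was 0.75 to 1.29 in control and -0.89 to 0.0086 in mutant arrays, and that of the mesoderm markers 0.59 to 0.67 and 0.21 to 0.35, so mutant arrays were lower in both without overlap. The sums of the primitive endoderm and neural progenitor markers overlapped between the groups. Because the values are centred, they do not show whether a marker was expressed at all.

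In ESC medium 615 genes were higher in mutant cells (3.09% of those tested) and 609 were lower (3.05%), together 6.14%, and mutant and control arrays did not overlap in any of these 1224 genes. Non-overlap alone is common here, since 17.7% of all genes had both mutant arrays above every control array and 21.7% had both below. Counts of called list members given below stand beside the 3.09% higher and 3.05% lower over all genes. The lists were chosen with earlier results of these data known. A higher share in a list is therefore in part what such a choice gives, and it is a description and not a test. The median size of the called differences was 0.56 for higher and -0.61 for lower genes. Differences past 1 were found for 84 higher and 109 lower genes, or 51 and 102 outside chromosomes 8, X and Y. Leaving out control replicate 2 or 3 lowered the count of 1224 to 653 or 639, and leaving out mutant replicate 2 or 3 lowered it to 304 or 525. Of 709 list members measured, 122 were called, and between 45 and 138 were when 1 of the 5 arrays was left out.

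**Figure D1:**
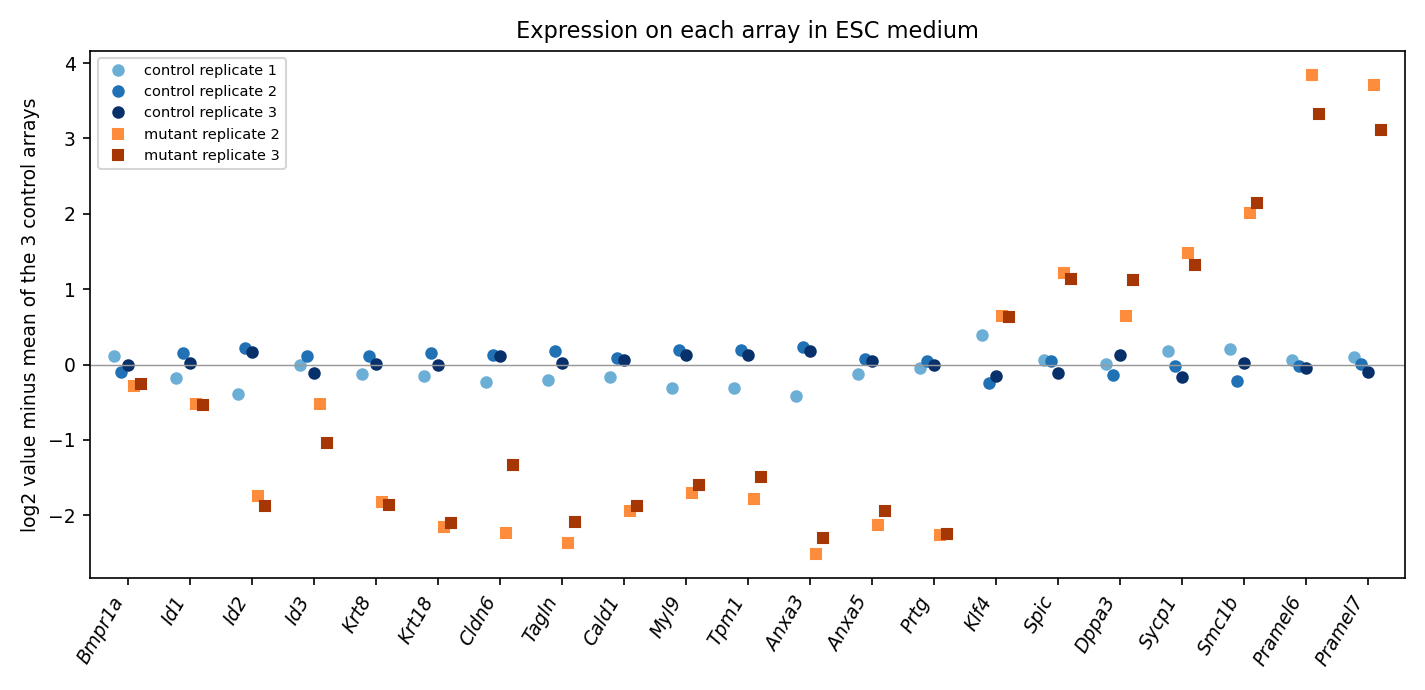
Log2 value of 21 genes on each of the 5 arrays in ESC medium, minus the mean of the 3 control arrays (circles, control replicates 1 to 3; squares, mutant replicates 2 and 3). Keratin, contractile and annexin genes lie below every control on both mutant arrays and Pramel6 and Pramel7 far above them, while Bmpr1a differs by only -0.27.

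The targeted gene itself gave a small difference. Bmpr1a, on chromosome 14, read 0.37, 0.16 and 0.25 in the control and -0.03 and 0.00 in the mutant arrays, so the groups did not overlap. Its difference of -0.27 (SE 0.10) was not called (adjusted p = 0.145). In N2B27 the same fit gave Bmpr1a a difference of -0.70, which was called (adjusted p = 0.0021). A value averaged over a whole gene is a weak check of the label where the deleted part is not known. Of the neighbouring genes, Mmrn2, which encodes a protein of the vessel matrix, rose by 1.2 (SE 0.20, adjusted p = 0.00735), while Sncg, Ldb3 and Opn4 differed by 0.37, -0.05 and 0.15 without a call. Mmrn2 read 1.14, 0.61 and 0.48 in the controls, against 1.87 and 2.01 in the mutants, and its call ended without mutant replicate 2 (adjusted p = 0.0593) or 3 (0.0697).

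Among BMP ligands and secreted antagonists, 1 of 16 measured genes was called (6.25%), close to the 6.14% over all genes. Bmp8b, a ligand gene known from the germ line and extraembryonic tissue, read 1.05, 0.68 and 0.78 in the controls, against -0.58 and -0.39 in the mutants. It fell by 1.32 on the log2 scale (SE 0.14, adjusted p = 0.00071) and kept its call without any 1 of the 5 arrays. Bmp4, the BMP most used in ESC culture, differed by 0.04, Bmp2 by -0.30 and Bmp7 by -0.15, and the antagonist genes Nog, Chrd and Fst differed by -0.18, -0.01 and -0.77, none of them called.

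Receptor genes leaned lower in mutant cells, with 12 of 13 differences below 0, a median of -0.23 against -0.01 for all genes, and 2 calls. Acvr1, another type I receptor for BMPs, fell from -0.15, -0.28 and -0.18 in control to -0.65 and -0.67 in mutant arrays, a difference of -0.45 (SE 0.06, adjusted p = 0.00213). The type II receptor gene Acvr2b fell by 0.41 (SE 0.10, adjusted p = 0.0426), a call that ended without any 1 of the 5 arrays (0.0876 to 0.323), with either centring of the arrays (0.0546 and 0.0549) and without chromosomes 8, X and Y (0.0538). Acvr2a, Bmpr1b and Bmpr2, the other BMP receptor genes of these classes, differed by -0.37, -0.20 and -0.21 without a call. Of 12 SMADs and regulators only Skil, a repressor of SMAD activity that is itself induced by Nodal and TGF-beta signals, was called. It fell by 0.63 (SE 0.14, adjusted p = 0.0291), from 0.47 to 0.54 in control to -0.28 and 0.04 in mutant arrays, and lost its call without any 1 of the 5 arrays (0.0515 to 0.286). Smad1, Smad5 and Smad9, the direct substrates of BMPR1A, differed by -0.17, -0.32 and -0.02.

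Of 20 BMP-SMAD targets, 2 fell and 18 did not pass, against 3.05% lower over all genes. Id2 read 0.90, 1.51 and 1.46 in the controls, against -0.46 and -0.59 in the mutants, with control replicate 1 nearest to the mutant values. It fell by 1.81 (SE 0.28, adjusted p = 0.00514). Id3 read 1.47, 1.58 and 1.36 in the controls, against 0.94 and 0.43 in the mutants, a fall of 0.78 (SE 0.20, adjusted p = 0.0495). Id1 read 1.16, 1.5 and 1.37 against 0.82 and 0.81 and missed the threshold, at -0.53 (SE 0.14, adjusted p = 0.0502), while Id4 differed by -0.10. The groups did not overlap in Id1, Id2 or Id3. The inhibitory SMAD genes Smad6 and Smad7, which feed back on the pathway, differed by -0.16 and -0.32, and Tbx3, a target that also belongs to the naive network, by 0.72, without a call. Id2 lost its call without mutant replicate 2 (0.0528) or 3 (0.0507). Leaving out any array ended the call of Id3 (0.0721 to 0.36), as did testing clusters alone (0.0504), dropping chromosomes 8, X and Y (0.0618) and robust moderation (0.0529). Id1 was called in 7 alternatives, among them the fit with the 5 arrays alone (0.0449) and that without control replicate 1 (0.0275).

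The promoter of Id2 is shown because this gene had the largest difference among the targets. It covers 250 bases before and 50 after the annotated start, from RefSeq GRCm38.p6, chr12:25096043-25096342 on the minus strand. Capitals mark GGCGCC, a GC-rich form bound by BMP SMADs, which begins at -231 and which 16.5% of 15612 promoters hold on either strand. It was also found in 4 of 11 BMP-SMAD targets with a listed promoter, of which Id2 alone was called.
Id2: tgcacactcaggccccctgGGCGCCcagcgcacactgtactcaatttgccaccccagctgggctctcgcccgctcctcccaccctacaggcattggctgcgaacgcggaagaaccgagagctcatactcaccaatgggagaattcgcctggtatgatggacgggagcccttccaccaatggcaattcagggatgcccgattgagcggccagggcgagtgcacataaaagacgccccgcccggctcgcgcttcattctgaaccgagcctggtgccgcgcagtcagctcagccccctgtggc

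Genes of contractile actin fibres were often lower in mutant cells. Of 20 measured, 12 fell, against 3.05% lower over all genes, none rose and 8 did not pass, with a median of -1.0. The list median relative to the control mean was -0.21, 0.14 and 0.06 on control replicates 1 to 3 and -1.05 and -0.93 on the mutant arrays. Tagln, which encodes the actin-binding protein transgelin, read -0.15, 0.23 and 0.07 in the controls, against -2.32 and -2.03 in the mutants. It fell by 2.23 (SE 0.36, adjusted p = 0.0059). Cald1, the gene for caldesmon, which restrains myosin on actin, read -0.25 to 0.00 in the controls, against -2.03 and -1.97 in the mutants and fell by 1.91 (SE 0.24, adjusted p = 0.00184). Control replicate 1 was the lowest control for both genes, yet lay more than 1 above each mutant array.

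Acta2, the smooth muscle actin gene, fell by 1.88 (SE 0.41, adjusted p = 0.0235), with 0.18, -0.08 and -0.15 in the controls, against -1.88 and -1.90 in the mutants. Myl9, a regulatory myosin light chain gene, read -0.82, -0.31 and -0.38 against -2.20 and -2.10, a fall of 1.65 (SE 0.33, adjusted p = 0.0167), and the tropomyosin gene Tpm1 fell by 1.64 (SE 0.24, adjusted p = 0.00354). The remaining called members were the calponin genes Cnn2 (-1.53) and Cnn1 (-1.35), Tpm2 (-1.12), the adhesion site genes Zyx (-1.21) and Vcl (-0.98), Csrp1 (-0.97), which encodes a LIM protein of actin bundles, and X-linked Flna (-0.32), the filamin A gene. Actg2, Lmod1, Tagln2 and Myh9, the last a non-muscle myosin gene, differed by 0.01, -0.06, -0.09 and -0.27 and were not called. Zyx, Cald1 and Tpm2 were called without any 1 of the 5 arrays. Acta2 (0.0508 to 0.161) and Flna (0.0788 to 0.333) lost their calls without any 1 array, Flna also with either centring (0.0591) and with the 5 arrays alone (0.0513). Without mutant replicate 2 the adjusted p was 0.077 for Tagln, 0.14 for Myl9, 0.0565 for Tpm1, 0.0742 for Cnn2, 0.166 for Cnn1, 0.106 for Vcl and 0.138 for Csrp1. Without mutant replicate 3 it was 0.0951 for Myl9, 0.201 for Cnn1, 0.0545 for Vcl and 0.066 for Csrp1, and Myl9, Cnn1 and Csrp1 also lost their calls without control replicate 2 (0.0623, 0.11 and 0.051) or 3 (0.06, 0.115 and 0.0523). Cnn1 was not called with the 5 arrays alone (0.0775) or with the sample number as a block (0.0542). The count of 12 lower ranged from 3 to 11 over the fits that leave out 1 of the 5 arrays, with a median of -1.15 to -0.93.

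The promoters of Myl9 and Vcl are printed because they are called members that hold a CArG box, the site of serum response factor at actin genes. The box was found on either strand in 5 of 18 contractile promoters (27.8%) and in 1.42% of all promoters of the same length. It was added to the search after the values were seen, so these shares are descriptions only. The called members with a match were Cnn2, Myl9 and Vcl, 3 of 11 called. Of 7 members without a call, 2 had a match too, Acta1 and Actc1. Tagln, Acta2, Cnn1 and Zyx are called without a match inside this window or without a listed promoter. Capitals mark the box, which begins at -161 in Myl9 (RefSeq GRCm38.p6, chr2:156775214-156775513, plus strand) and at -227 in Vcl (chr14:20929148-20929447, plus strand).
Myl9: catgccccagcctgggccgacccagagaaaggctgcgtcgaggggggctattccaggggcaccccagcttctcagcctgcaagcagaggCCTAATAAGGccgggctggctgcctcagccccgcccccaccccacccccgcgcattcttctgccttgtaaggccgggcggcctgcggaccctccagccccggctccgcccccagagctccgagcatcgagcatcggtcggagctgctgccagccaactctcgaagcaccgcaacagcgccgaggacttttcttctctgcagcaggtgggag
Vcl: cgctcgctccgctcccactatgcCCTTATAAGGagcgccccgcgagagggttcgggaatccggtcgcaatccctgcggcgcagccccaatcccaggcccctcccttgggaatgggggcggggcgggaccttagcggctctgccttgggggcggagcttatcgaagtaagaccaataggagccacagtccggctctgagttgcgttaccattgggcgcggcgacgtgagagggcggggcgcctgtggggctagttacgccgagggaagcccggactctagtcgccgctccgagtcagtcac

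Targets of YAP and TEAD, the transcription partners at the end of the Hippo pathway that respond to cell shape and tension, were also lower. Of 15 measured, 8 fell, against 3.05% lower over all genes, and 7 did not pass. The median was -0.60, and no member rose. Thbs1, the thrombospondin 1 gene, read 0.00, -0.33 and -0.31 in the controls, against -2.60 and -2.42 in the mutants, so it fell by 2.30 (SE 0.44, adjusted p = 0.0143). Nt5e, which encodes the surface enzyme CD73, read 0.18, 1.16 and 1.25 against -0.74 and -0.81 and fell by 1.64 (SE 0.26, adjusted p = 0.00514). In Nt5e, control replicate 1 lay about midway between the other controls and the mutant arrays.

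Ptpn14, a phosphatase gene of the pathway's negative feedback, fell by 1.17 (SE 0.16, adjusted p = 0.00249), Crim1, which encodes a membrane protein that binds BMPs, by 1.14 (SE 0.16, adjusted p = 0.00346) and F3, the tissue factor gene, by 1.07 (SE 0.18, adjusted p = 0.00682). Axl (-0.93), a receptor kinase gene, Amotl2 (-0.89), an angiomotin family gene that restrains YAP, and Arhgef17 (-0.55) were the other called members. Tead1 and Tead4, which encode DNA-binding partners of YAP, differed by -0.60 and -0.04 without a call. Ptpn14 and Crim1 kept their calls without any 1 of the 5 arrays. When mutant replicate 2 was left out, the adjusted p was 0.131 for Thbs1, 0.0559 for Nt5e, 0.0802 for F3, 0.0565 for Axl, 0.122 for Amotl2 and 0.111 for Arhgef17. Thbs1 and Amotl2 also missed the threshold without mutant replicate 3 (0.0824 and 0.0857), and Amotl2 without control replicate 2 (0.0527) or 3 (0.0539). The count of 8 ranged from 2 to 8 when 1 array was left out.

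The promoter of Amotl2 is shown as an example of a called member with GGAATG, the core letters bound by TEAD factors, here as CATTCC of the other strand at -65. GGAATG was found on either strand in 7 of 10 listed promoters of this group (70.0%) and in 13.1% of all promoters. This motif too was added to the search after the values were seen, for a list made of TEAD targets. The shares are descriptions only. The called members with a match were Amotl2, Axl, Ptpn14 and Crim1, 4 of 6 called. Of 4 members without a call, 3 had a match too, Ankrd1, Lats2 and Ajuba. The contractile promoters held GGAATG in 8 of 18 cases (44.4%). The window is RefSeq GRCm38.p6, chr9:102717554-102717853, plus strand.
Amotl2: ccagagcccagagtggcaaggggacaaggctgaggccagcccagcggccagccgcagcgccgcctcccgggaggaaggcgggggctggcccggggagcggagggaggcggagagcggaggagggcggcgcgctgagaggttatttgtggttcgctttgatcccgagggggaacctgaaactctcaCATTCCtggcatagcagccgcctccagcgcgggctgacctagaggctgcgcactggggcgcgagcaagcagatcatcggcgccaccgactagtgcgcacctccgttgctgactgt

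In the epithelial group of keratins, claudins and desmosome genes, 10 of 24 measured members fell, against 3.05% lower over all genes, and none rose. All 24 differences were below 0, with a median of -0.58. In 21 both mutant arrays lay below every control array, against 21.7% of all genes. Krt18 and Krt8 encode the keratin pair of simple epithelia and lie near each other on chromosome 15. Krt8 read 0.13, 0.36 and 0.26 in the controls, against -1.57 and -1.62 in the mutants, a fall of 1.85 (SE 0.11, adjusted p = 2.52e-05). Krt18 read -0.06, 0.26 and 0.10 against -2.05 and -2.0 and fell by 2.12 (SE 0.25, adjusted p = 0.00126). The gap between the groups was several times the spread within either group for both genes. Of the trophoblast markers, whose sum was lower on the mutant arrays, Eomes, Krt7 and Cdx2 differed by -0.68, -0.62 and -0.23 and the other 4 by -0.03 to 0.10, none called. Their part in the fall of the keratin and junction genes was not tested.

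Among the tight junction genes, Cldn6, a claudin of the early embryo, read -0.51, -0.15 and -0.16 against -2.51 and -1.60 and fell by 1.79 (SE 0.22, adjusted p = 0.00149), with the mutant arrays 0.91 apart. Cldn7 fell by 1.43 (SE 0.28, adjusted p = 0.0143), Cgn, which encodes the junction plaque protein cingulin, by 1.35 (SE 0.23, adjusted p = 0.00753) and Ocln, the occludin gene, by 0.74. Of the desmosome genes Dsc2 (-1.35), Dsp (-1.19) and Perp (-0.79) fell, as did Grhl2 (-0.70), a transcription factor gene that drives epithelial junction genes. Cdh1 and Epcam, the adhesion genes most typical of ESC colonies, differed by -0.23 and -0.35 and Cldn3 by -0.08, none called. Krt8, Krt18, Cldn6, Dsc2, Perp and Grhl2 were called without any 1 of the 5 arrays. With mutant replicate 2 left out, the adjusted p was 0.164 for Cldn7, 0.102 for Cgn, 0.138 for Ocln and 0.0987 for Dsp. Cldn7 also lost its call without control replicate 2 (0.0551) or 3 (0.0539) and with the 5 arrays alone (0.065), and Dsp without control replicate 2 (0.0539) or mutant replicate 3 (0.109). Between 6 and 12 members were lower when 1 array was left out.

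Genes of the cadherin switch showed few calls beside the epithelial genes. Of 12 such genes and EMT factors (of the epithelial to mesenchymal transition), none fell and 2 rose: Zeb1, a repressor of Cdh1, by 0.77 (SE 0.14, adjusted p = 0.00986) and the adhesion gene Ncam1 by 0.94 (SE 0.20, adjusted p = 0.0211). Snai1, Snai2, Twist1 and Vim differed by 0.19, 0.10, 0.26 and 0.28 and Cdh2 by -0.31 without a call. Zeb1 lost its call without mutant replicate 2 (0.126). Ncam1 read 0.65, -0.19 and -0.08 in the controls, against 1.03 and 1.10 in the mutants, and lost its call without control replicate 2 (0.0662) or 3 (0.0759), without mutant replicate 2 (0.137) or 3 (0.136) and with the 5 arrays alone (0.0936).

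Of 20 genes of collagens, laminins and basement membrane, 8 fell, against 3.05% lower over all genes. None rose, and the median was -0.45. Col1a1, which encodes the main fibrillar collagen chain, read 1.74, 0.85 and 1.17 in the controls, against -0.04 and -0.09 in the mutants, a fall of 1.32 (SE 0.20, adjusted p = 0.00417). Lamb1, a laminin chain gene of the basement membrane, fell by 1.15 (SE 0.18, adjusted p = 0.00451). Col1a2 (-0.73), Col4a2 (-0.65), Col18a1 (-0.63), Lama5 (-0.54), Col5a1 (-0.50) and Col4a1 (-0.47) were the others called, and Col4a1 and Col4a2 fell although they lie on chromosome 8, where most called genes rose. Lama1, Lamc1 and Nid1, of the same basement membrane as Lamb1, differed by 0.13, 0.29 and 0.35 without a call. The list median was 0.24 above the control mean on control replicate 1, -0.16 and -0.09 on the other controls and -0.43 on both mutant arrays. Col1a1 kept its call without any 1 array. Without mutant replicate 2 the adjusted p was 0.0675 for Lamb1, 0.191 for Col1a2, 0.226 for Col18a1, 0.13 for Lama5 and 0.199 for Col4a1, and without mutant replicate 3 it was 0.105 for Col1a2, 0.0559 for Col4a2, 0.15 for Col18a1, 0.111 for Lama5, 0.111 for Col5a1 and 0.183 for Col4a1. Col1a2 also missed it without control replicate 3 (0.063) and Col4a1 without control replicate 1 (0.0594) or 3 (0.0726) and with the sample number as a block (0.0507). With the 5 arrays alone Col1a2 (0.0705), Col18a1 (0.103) and Col4a1 (0.0636) were not called.

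Fibroblasts or feeder cells in a culture would bring several of these genes, so their markers are given beside them. Of 9 markers measured, Col1a1 and Col1a2 fell, and Col3a1, Postn, Lum, Dcn, Thy1, S100a4 and Pdgfrb differed by 0.03, 0.06, -0.02, -0.08, 0.08, 0.05 and -0.21. The summed value of the 9 was 0.096 to 1.47 in control and -1.78 to -1.23 in mutant arrays. Of the wider fibroblast and feeder list of 19 genes 4 fell, among them Acta2, and the list median was -0.08. Their part in the fall of the contractile and matrix genes was not tested. In bulk RNA, fewer cells of a type and less RNA per cell cannot be told apart.

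Surface and membrane genes outside the lists above were also among the largest falls. Of 17 annexin and S100 genes only Anxa3 and Anxa5, which encode calcium-dependent membrane-binding proteins, were called. Anxa3 read 0.32, 0.97 and 0.92 in the controls, against -1.78 and -1.57 in the mutants and fell by 2.41 (SE 0.27, adjusted p = 0.000957). Anxa5 fell by 2.03 (SE 0.25, adjusted p = 0.00164), from 0.25 to 0.46 in control to -1.75 and -1.56 in mutant arrays. Anxa2 and Anxa6, abundant members in many cells, differed by -0.20 and -0.18 without a call. Both calls held without any 1 of the 5 arrays.

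Of 17 ephrins and Eph receptors, which signal at cell contacts, 4 fell, against 3.05% lower over all genes, and none rose. The receptor gene Epha1 read -0.57, 0.14 and 0.09 in the controls, against -2.37 and -1.99 in the mutants, a fall of 2.06 (SE 0.24, adjusted p = 0.00107). The ligand genes Efna5 (-1.22), Efnb2 (-0.80) and Efnb1 (-0.48) fell as well. Prtg, which encodes the immunoglobulin family protein protogenin of the early embryo, had nearly the same value on all control arrays (-0.07, 0.02 and -0.02) and on both mutant arrays (-2.28 and -2.27) and fell by 2.25 (SE 0.08, adjusted p = 2.05e-07). Pmp22, a membrane glycoprotein gene known from myelin, fell by 1.90 (SE 0.25, adjusted p = 0.00202). Efna5 lost its call without mutant replicate 2 (0.124), Efnb2 without control replicate 2 or 3 or either mutant array (0.0635 to 0.146) and Efnb1 without any 1 array (0.0668 to 0.248).

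Pluripotency genes moved by smaller steps. Of 21 naive pluripotency genes, which mark the ground state of ESCs, 6 rose, against 3.09% higher over all genes. None fell and 15 did not pass, with a median of 0.48. The median relative to the control mean was 0.26 on control replicate 1, -0.13 and -0.11 on the other controls and 0.52 and 0.44 on the mutant arrays. Tcl1, which encodes a cofactor of AKT kinase, read 2.47, 1.85 and 1.97 in the controls, against 3.27 and 3.44 in the mutants and rose by 1.26 (SE 0.16, adjusted p = 0.00171). Spic, an ETS factor gene, read 0.19, 0.16 and 0.01 against 1.34 and 1.26 and rose by 1.18 (SE 0.08, adjusted p = 5.23e-05). Prdm14, a repressor of differentiation and of DNA methylation genes, rose by 1.06 (SE 0.16, adjusted p = 0.00378).

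Dppa3, a maternal factor gene that limits DNA methylation, rose by 0.88 (SE 0.14, adjusted p = 0.0045), as did Zfp42 by 0.88 (SE 0.22, adjusted p = 0.0416) and Klf4, a core naive factor gene, by 0.64 (SE 0.16, adjusted p = 0.039). Zfp42 lies on chromosome 8, where most called genes rose. In Klf4, control replicate 1 stood at 2.19, close to the mutant values of 2.44 and 2.43, with the other controls at 1.55 and 1.64. Esrrb, Nr5a2, Tfcp2l1 and Klf5, all naive factor genes, differed by 0.31, 0.24, 0.03 and 0.20 without a call. Nanog differed by 0.47 (SE 0.34, adjusted p = 0.576) and was called with the 5 arrays alone (0.0163). None of 9 general pluripotency genes was called, with Pou5f1 at 0.10, Sox2 at 0.19 and Lin28a at -0.30. When mutant replicate 2 was left out, the adjusted p was 0.0572 for Prdm14, 0.323 for Zfp42 and 0.232 for Klf4. The last 2 also lost their calls without control replicate 2 (0.133 and 0.118) or 3 (0.119 and 0.131), without mutant replicate 3 (0.105 and 0.175) and with the 5 arrays alone (0.0559 and 0.123). Between 3 and 10 naive genes were higher when 1 array was left out.

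The median of 20 formative and epiblast genes, which come on as ESCs leave the naive state, was -0.35. None rose and 5 fell, against 3.05% lower over all genes. These were Cldn6, Lef1 (-1.27), the WNT effector gene, Dusp6 (-0.88), Grhl2 and Zic5 (-0.49), and 2 of them, Cldn6 and Grhl2, are also in the epithelial list. Otx2, Fgf5, Pou3f1 and Dnmt3b, the genes most used to mark this state, differed by 0.03, -0.42, -0.46 and -0.41 without a call. Lef1 lost its call without control replicate 2 (0.0666), mutant replicate 2 (0.166) or mutant replicate 3 (0.0793), Zic5 without mutant replicate 2 (0.142) and Dusp6 without control replicate 2 or 3 or either mutant array (0.0641 to 0.268).

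Of 17 genes of the Pramel family and the 2-cell stage, 7 rose and none fell, with a median of 0.63, against 3.09% higher over all genes. Pramel6 read 0.12, 0.04 and 0.02 in the controls, against 3.9 and 3.38 in the mutants and rose by 3.58 (SE 0.13, adjusted p = 3.28e-07). Its neighbour Pramel7, on the same stretch of chromosome 2, read 0.11, 0.01 and -0.10 against 3.71 and 3.11 and rose by 3.40 (SE 0.15, adjusted p = 1.51e-06). Both encode leucine-rich repeat proteins of the early embryo, and mutant replicate 2 was the higher array in each.

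Dnajc5g, a cochaperone gene, read 0.01 to 0.09 in the controls, against 2.29 and 2.36 in the mutants, a rise of 2.29 (SE 0.06, adjusted p = 5.68e-08). Tdpoz3, of a family expressed in the early embryo, rose by 2.33 (SE 0.41, adjusted p = 0.00929), with 3.13 on mutant replicate 2 and 2.19 on replicate 3. Calcoco2, an autophagy receptor gene, rose by 2.10 (SE 0.21, adjusted p = 0.000637), Zp3, an egg coat gene, by 1.2 and Khdc3, of the oocyte's maternal complex, by 1.15. Zfp352, Usp17la and Usp17lc differed by 0.59, 0.63 and 0.66 without a call. The list median relative to the control mean was 1.03 on mutant replicate 2 and 0.43 on replicate 3. Tdpoz3 lost its call without mutant replicate 2 (0.124), and Khdc3 without control replicate 2 or 3 or either mutant array (0.053 to 0.139) and with the 5 arrays alone (0.0724).

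Of 28 meiotic and germline genes, 10 rose, against 3.09% higher over all genes, none fell and 18 did not pass. The median was 0.13. Smc1b, a cohesin subunit gene used in meiosis, read 0.75, 0.33 and 0.57 in the controls, against 2.55 and 2.70 in the mutants and rose by 2.08 (SE 0.26, adjusted p = 0.00181). Sycp1, which encodes the central rod of the synaptonemal complex between paired chromosomes, read 0.33, 0.13 and -0.02 against 1.62 and 1.46 and rose by 1.40 (SE 0.11, adjusted p = 0.000159). Hormad1, an axis protein gene of the same complex, rose by 1.33 (SE 0.21, adjusted p = 0.0048), Rpl10l, a testis ribosomal protein gene, by 1.36 (SE 0.19, adjusted p = 0.00258) and Stk31 by 0.94 (SE 0.15, adjusted p = 0.00597).

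Piwil2, which acts with small RNAs against transposons, rose by 0.91, X-linked Rhox9, Taf7l and Rhox6 by 0.82, 0.79 and 0.78, and Slc25a31, the testis form of the mitochondrial ATP carrier, by 0.37. The members did not move as 1 block: Sycp3, Ddx4 and Mael, germline genes of the same stages, differed by -1.26, -0.65 and -0.54 without a call, and Dazl and Stra8 by 0.10 and -0.04. Smc1b, Sycp1 and Rpl10l were called without any 1 array. With mutant replicate 2 left out, the adjusted p was 0.0705 for Hormad1, 0.0638 for Stk31, 0.09 for Piwil2, 0.0699 for Rhox9, 0.0651 for Taf7l, 0.215 for Rhox6 and 0.199 for Slc25a31. Rhox6 and Slc25a31 lost their calls also without control replicate 2 (0.0702 and 0.0626) or 3 (0.087 and 0.0566), and Rhox6 without mutant replicate 3 (0.0981). The count of 10 ranged from 3 to 11.

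Of 13 measured genes of the X-linked cancer-testis and Rhox families, which are silent in most body tissues, 9 rose and none fell. Over all genes 3.09% were higher, and on the X 22.1%. Nxf3, an RNA export factor gene, read 0.00, -0.17 and -0.30 in the controls, against 2.79 and 2.97 in the mutants and rose by 3.03 (SE 0.21, adjusted p = 6.24e-05). Magea4, a melanoma antigen family gene, read -0.05 to 0.03 against 2.57 and 2.50, a rise of 2.54 (SE 0.23, adjusted p = 0.000261). Usp26, a ubiquitin protease gene of the testis, read 1.37, -0.01 and 0.25 in the controls, against 2.22 and 2.43 in the mutants and rose by 1.79 (SE 0.40, adjusted p = 0.0285), and control replicate 1 was nearer to the mutants than to the other controls. The other called members, Nxf7 (0.87), Rhox9, Rhox6, Rhox1 (0.55), Magea5 (0.28) and Nxf2 (0.27), were smaller. Rhox9 and Rhox6 stand in both lists, and all genes of this list are on the X, where calls of higher expression were common. Usp26 and Nxf7 lost their calls without control replicate 2 (0.094 and 0.0583) or 3 (0.0978 and 0.0668), or without mutant replicate 2 (0.154 and 0.199) or 3 (0.174 and 0.0553), and Usp26 with the 5 arrays alone (0.0613). Magea5 and Nxf2 lost theirs without control replicate 2 or 3 or either mutant array (0.0565 to 0.138 and 0.0669 to 0.213). Between 3 and 9 of the 13 were higher when 1 array was left out.

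The promoters of Sycp1, Hormad1 and Pramel6 are shown because the germline and Pramel groups, both with called higher members, differ in promoter letters. CACGTG, the E-box bound by MAX and its partners at germline genes, is in capitals and reads the same on both strands. It was found in 11 of 23 listed meiotic and germline promoters (47.8%) and in 8.39% of all promoters. The called genes with a match were Sycp1, Hormad1, Stk31, Taf7l and Slc25a31, 5 of 7 called, and 6 of 16 members without a call had one too. The match begins at -94 in Sycp1 (RefSeq GRCm38.p6, chr3:102936051-102936350, minus strand) and at -57 and -20 in Hormad1 (chr3:95559427-95559726, plus strand). The 13 listed promoters of the Pramel and 2-cell stage list, which also holds genes outside the Pramel family, had a median of 1 CpG dinucleotide in 300 bases. The median was 20 in the germline group and 15 over all promoters. The promoter of Pramel6 (chr2:87506315-87506614, plus strand) has 3 CpG and no CACGTG in this window.
Sycp1: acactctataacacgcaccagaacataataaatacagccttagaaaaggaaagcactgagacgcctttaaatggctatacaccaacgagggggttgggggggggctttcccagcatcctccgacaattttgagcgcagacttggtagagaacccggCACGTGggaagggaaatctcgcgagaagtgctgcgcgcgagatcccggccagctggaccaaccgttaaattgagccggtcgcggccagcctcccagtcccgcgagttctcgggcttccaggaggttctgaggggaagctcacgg
Hormad1: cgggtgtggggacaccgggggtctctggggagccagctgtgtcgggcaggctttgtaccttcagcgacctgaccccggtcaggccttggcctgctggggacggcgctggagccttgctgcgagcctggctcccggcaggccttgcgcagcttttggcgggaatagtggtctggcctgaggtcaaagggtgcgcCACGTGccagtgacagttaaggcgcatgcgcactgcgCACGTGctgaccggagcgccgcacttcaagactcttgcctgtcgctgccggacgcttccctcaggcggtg
Pramel6: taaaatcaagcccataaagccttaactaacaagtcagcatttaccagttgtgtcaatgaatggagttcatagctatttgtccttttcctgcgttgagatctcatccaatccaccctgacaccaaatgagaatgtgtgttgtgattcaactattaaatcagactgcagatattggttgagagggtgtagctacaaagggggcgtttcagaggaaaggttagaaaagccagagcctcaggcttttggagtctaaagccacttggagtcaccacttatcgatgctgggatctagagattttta

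Over all called genes outside chromosomes 8, X and Y, the higher genes (235) had a median of 15 CpG in the promoter window, the same as over all promoters, with 20% under 5 CpG, and the lower genes (476) a median of 22, with 4.41% under 5. The subset more than 1 higher had a median of 8.5 (36 genes), with 33.3% under 5. Genes more than 1 lower had a median of 20 (89 genes), with 5.62% under 5, and over all promoters 24.6% were under 5. These are descriptions of the listed promoters, and no test was made of them. The other letters fixed for search were GTCTAGAC, a palindromic SMAD site found in 0.231% of promoters and in Smad6 alone of the BMP targets, and TCCCGC, an E2F-type site found in 27.7% of all and in 39.5% of lower genes outside chromosomes 8, X and Y. Matches to different motifs overlapped in at most 30 of the 15612 promoters for any pair (TCCCGC with GGAATG).

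Signalling pathways other than BMP gave a few calls each. Of 19 ERK feedback genes and Etv factors, which report FGF signalling, 3 fell, against 3.05% lower over all genes. None rose, and the median was -0.38. Errfi1, an inhibitor of EGF receptors, fell by 0.93 (SE 0.21, adjusted p = 0.0297), the phosphatase gene Dusp6 by 0.88 (SE 0.20, adjusted p = 0.0281) and the RAF inhibitor gene Spred1 by 0.69 (SE 0.08, adjusted p = 0.0013). Etv4, Etv5 and Spry4, widely used readouts of the same pathway, differed by 0.15, -0.08 and 0.57 without a call. Spred1 kept its call without any 1 array, while Errfi1 lost it without any of them (0.0614 to 0.199). Of 15 FGF ligands and receptors only Fgf17 was called, at -0.51 (SE 0.12, adjusted p = 0.0376), and it lost its call without control replicate 1 (0.0632) or 2 (0.114), mutant replicate 2 (0.215) or 3 (0.182), with the 5 arrays alone (0.0961) and with the sample number as a block (0.0545).

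Of 12 WNT targets, Lef1 and Sp5, both direct targets of beta-catenin, fell. Sp5 read 0.48, 1.25 and 1.40 in the controls, against -0.22 and -0.10 in the mutants, a fall of 1.2 (SE 0.31, adjusted p = 0.0483), whereas Axin2, the feedback target most often used, differed by -0.54 without a call. Sp5 lost its call without control replicate 2 (0.151) or 3 (0.154), mutant replicate 2 (0.283) or 3 (0.181), with the 5 arrays alone (0.0623), without chromosomes 8, X and Y (0.0603) and under robust moderation (0.052). Of 17 genes of the LIF receptor and STAT3 response, Klf4, Bcl3 (0.47, SE 0.08) and Socs3 (0.38, SE 0.09), a feedback inhibitor gene, rose. Bcl3 lost its call without mutant replicate 2 (0.0834) and Socs3 without control replicate 2 or 3 or either mutant array (0.106 to 0.245). Of 9 genes of the Nodal-SMAD2 pathway Skil alone was called, and Nodal, Lefty1 and Lefty2 differed by -0.35, 0.32 and 0.86.

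Of 14 BCL2 family genes 3 fell, against 3.05% lower over all genes. All 3 were BH3-only genes, whose products promote cell death: Bcl2l11 fell by 0.73 (SE 0.12, adjusted p = 0.00734), Bmf by 0.46 (SE 0.11, adjusted p = 0.0327) and Bik by 0.41 (SE 0.09, adjusted p = 0.0186). Bcl2l11, the BIM gene, read -0.27, -0.20 and -0.10 in the controls, against -0.98 and -0.86 in the mutants. The protective members Bcl2, Mcl1 and Bcl2l1 differed by -0.36, -0.35 and -0.24 without a call. Bcl2l11 lost its call without mutant replicate 2 (0.0914), Bmf without control replicate 1 or 3 or either mutant array (0.0742 to 0.232) and Bik without control replicate 2 or 3 or either mutant array (0.0717 to 0.169), as well as with the 5 arrays alone (0.0686). Of 17 p53 targets only Perp, also of the desmosome list, was called. Of 27 cell cycle genes Cdk6, a kinase gene of early G1 phase, fell by 1.08 (SE 0.19, adjusted p = 0.00883), a call that ended without mutant replicate 2 (0.0961) or 3 (0.0566). Mki67, Ccna2 and the replication genes Mcm2 and Mcm3 differed by -0.17, -0.09, 0.00 and 0.06.

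No gene was called among 25 genes of the MYC network and ribosome biogenesis, 20 Polycomb and PRC1.6 genes, 16 genes of the unfolded protein and integrated stress response, 22 of primitive streak and mesoderm, and 11 metallothionein and zinc transporter genes. Their medians lay between -0.08 and 0.05, and some members had differences of fair size. Myc differed by -0.55 (SE 0.32) and Mycn by -0.25 (SE 0.24), Wnt3 by -0.85 and Wnt8a by -0.82, Herpud1 by 0.61 and Slc39a8 by -0.72. Wnt3 (0.0231) and Wnt8a (0.0216) were called with the 5 arrays alone, as was Herpud1 (0.0164), which lies on chromosome 8. Of the germ layer lists, 1 of 21 neural genes fell, Sox11 by 1.22 (SE 0.15, adjusted p = 0.00159), which marks immature neurons. Among 20 endoderm genes Hnf4a, a visceral endoderm factor gene, rose by 0.90 (SE 0.13, adjusted p = 0.00363) and Col4a1 fell, while Gata4, Gata6 and Sox17 differed by 0.16, 0.01 and 0.12. Among 18 trophoblast genes Bmp8b alone was called. Hnf4a read -0.18 to 0.13 in the controls, against 0.94 and 0.90 in the mutants, with a call that ended without mutant replicate 2 (0.0504). Among 20 genes of the neuronal cytoskeleton, Tubb3, on chromosome 8, rose by 1.18, Ncam1 by 0.94 and the tubulin gene Tubb2b by 0.49, and Marcks fell by 0.75. Tubb3 lost its call without control replicate 2 or 3 or either mutant array (0.0593 to 0.194), Tubb2b without mutant replicate 2 (0.0713) and Marcks without control replicate 2 or 3, or without mutant replicate 2 (0.101 to 0.321) and with the 5 arrays alone (0.0511).

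Most members of each metabolic list were not called. Polg, the catalytic subunit gene of the mitochondrial DNA polymerase, read 0.41, 0.53 and 0.63 in the controls, against -0.16 and -0.24 in the mutants and fell by 0.73 (SE 0.15, adjusted p = 0.0203). It was the only call among 14 genes of mitochondrial DNA maintenance, with Polg2, the accessory subunit gene, at -0.20 and Tfam at 0.02. In N2B27 Polg fell by 2.07, and the interaction of genotype with medium was called (adjusted p = 0.0127). Of 26 respiratory chain subunits, Ndufa1 (0.79) and Cox7b (0.59), both X-linked, rose and Cox6a1 (-0.36) fell. Of 16 amino acid transporters, Slc1a1 (0.76), which carries glutamate and aspartate, rose, and Slc1a3 (-0.73), Slc43a1 (-0.63) and Slc38a1 (-0.50) fell. These were 6.25% higher and 18.75% lower, against 3.09% and 3.05% over all genes. Of 22 genes of cholesterol and fatty acid synthesis, Sqle (-0.55) and Srebf2 (-0.49), the sterol-sensing factor gene, fell. In this list 18 differences were below 0, the median was -0.29 against -0.01 for all genes, and both mutant arrays lay below every control array in 12 genes, against 21.7% of all genes. Rdh10, which makes retinaldehyde for retinoic acid, fell by 1.2 (SE 0.19, adjusted p = 0.00556) and the receptor gene Rxra rose by 0.45, of 17 retinoic acid genes. Tap1, the peptide transporter gene of antigen presentation, fell by 0.89 (SE 0.12, adjusted p = 0.00251), the only call among 10 MHC class I genes, all of them below 0 with a median of -0.51, and in 8 both mutant arrays lay below every control array.

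The calls of Cox7b, Slc1a3 and Tap1 held without any 1 of the 5 arrays. Cox6a1 (0.0702 to 0.314), Sqle (0.0734 to 0.233) and Srebf2 (0.0536 to 0.329) lost theirs without any 1 array. Without mutant replicate 2 the adjusted p was 0.127 for Polg, 0.077 for Ndufa1, 0.0909 for Slc1a1, 0.133 for Slc43a1, 0.19 for Slc38a1, 0.0563 for Rdh10 and 0.106 for Rxra. Without mutant replicate 3 it was 0.138 for Polg, 0.0676 for Ndufa1, 0.0859 for Slc38a1, 0.0534 for Rdh10 and 0.208 for Rxra. Polg also lost its call without control replicate 2 (0.0668) or 3 (0.075), Slc38a1 without control replicate 2 (0.0517), and Rxra without control replicate 1 (0.0515) or 2 (0.101). Slc38a1 (0.0594) and Srebf2 (0.0667) were not called with the 5 arrays alone, Slc38a1 (0.063) and Cox6a1 (0.0502) with clusters tested alone, and Cox6a1 (0.062 and 0.0526) without chromosomes 8, X and Y or under robust moderation.

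Imprinted genes, which are expressed from 1 parental copy, moved both ways. Of 24 measured, 4 rose and 4 fell. Igf2, the fetal growth factor gene, read 1.35, 0.54 and 0.75 in the controls, against -0.60 and -0.75 in the mutants and fell by 1.55 (SE 0.22, adjusted p = 0.00313). Phlda2 and Cdkn1c, growth-limiting genes of the same distal part of chromosome 7, differed by -1.12 (adjusted p = 0.000824) and -0.91 (adjusted p = 0.000261), both called, and Grb10, an insulin receptor adaptor gene on chromosome 11, fell by 1.15 (SE 0.20, adjusted p = 0.00756). The genes that rose were Plagl1 (1.02), a zinc finger regulator of the imprinted network, Impact (0.86), Nnat (0.80) and Mest (0.75). Peg3, Dlk1 and Meg3 differed by -0.02, -0.06 and -0.02. Grb10 lost its call without mutant replicate 2 (0.0981), Nnat without mutant replicate 3 (0.0628) and Mest without control replicate 2 or 3 or either mutant array (0.0526 to 0.117). In N2B27 Igf2, Phlda2, Cdkn1c, Grb10, Plagl1, Impact and Nnat were called in the same direction, with -1.36, -0.97, -1.10, -1.52, 1.28, 1.2 and 3.13.

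**Figure D2:**
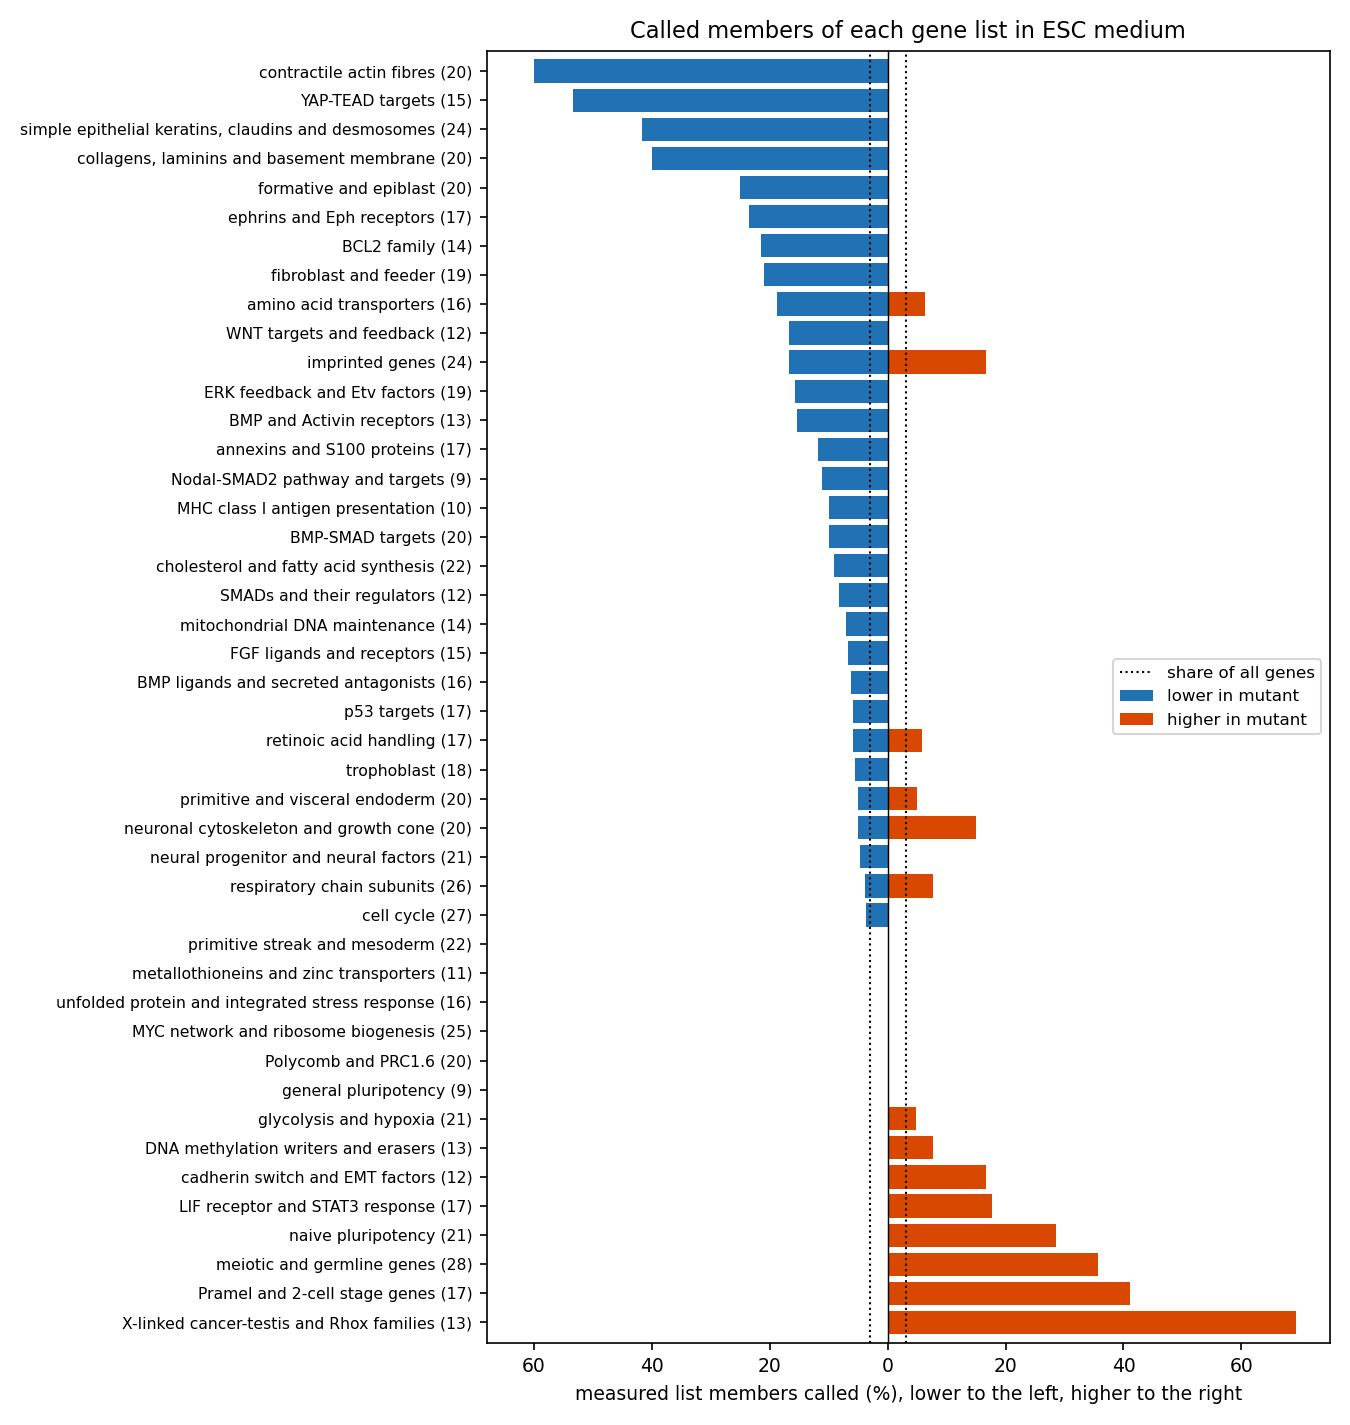
Share of the measured members of each gene list that was called in ESC medium, in percent, with lower in mutant to the left and higher to the right, and the number measured in brackets. Dotted lines mark the 3.05% lower and 3.09% higher of all genes. Contractile genes reach 60% to the left and X-linked cancer-testis genes 69.2% to the right. The lists were chosen with earlier results of these data known.

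Calls were unevenly spread over chromosomes. On chromosome 8, 150 of 955 genes were higher and 10 lower, and 74.0% of all its genes were above 0. The median of the chromosome was 0.120 on mutant replicate 2 and 0.136 on replicate 3, against -0.0079 to 0.0068 on the controls. The medians of the 18 other autosomes ran from -0.033 to 0.0013. When the chromosome was divided into 19 windows of 50 neighbouring genes (55 in the last), each had a median above 0, from 0.0057 to 0.216. The shift ran along the whole chromosome on both mutant arrays.

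Hmox1, the stress-induced heme oxygenase gene, was the chromosome 8 gene with the largest increase, 1.32 (SE 0.12, adjusted p = 0.000261), with -0.30 to 0.00 in the controls, against 1.13 and 1.14 in the mutants. Nqo1, a quinone reductase gene, rose by 1.23, Cdyl2 by 1.23, Snx25, a sorting nexin gene, by 1.17 and Gpt2, an alanine transaminase gene, by 0.90. The lower genes included Cpe (-0.89), a prohormone processing enzyme gene, Efnb2 (-0.80), the potassium channel gene Kcnk1 (-0.78) and the iodide transporter gene Slc5a5 (-0.52), which rose by 0.82 in N2B27. Hmox1, Nqo1, Cdyl2, Snx25 and Gpt2 kept their calls without any 1 array. Kcnk1 lost its call without mutant replicate 2 (0.0586), Cpe without control replicate 2 (0.0702) or 3 (0.0833), or without mutant replicate 2 (0.233), and Slc5a5 without control replicate 1 (0.0692) or 2 (0.113), or without mutant replicate 2 (0.0531) or 3 (0.269). Cpe (0.0563) and Slc5a5 (0.0626) were not called with the 5 arrays alone.

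On the X, 163 of 739 genes were higher and 11 lower, with a median of 0.0897. The pattern along the chromosome was uneven. The third of 15 windows, from Chst7 to Btg1b, had 24 of 50 genes higher and a median of 0.519, and the seventh, from Magea9-ps to Fundc2, had 20 of 50 and 0.381. The last 3 windows had medians of 0.0053, -0.0245 and -0.0334, with 6, 2 and 1 higher calls. Efhc2, which encodes a protein of motile cilia, rose by 3.97 (SE 0.25, adjusted p = 2.69e-05), from -0.02 to 0.42 in control to 4.06 and 4.2 in mutant arrays. Glod5 rose by 1.72, Ripply1, a repressor gene of somite formation, by 1.64 and Pnma5 by 1.99. Mid1, a ubiquitin ligase gene at the end of the X, lay at 1.43 to 1.87 in control and at -1.66 and -1.75 in mutant arrays and fell by 3.34 (SE 0.19, adjusted p = 1.7e-05). Fndc3c1 fell by 2.08 (SE 0.38), with control replicate 1 at -1.99 and the other controls at -0.55 and -0.43, and lost its call without mutant replicate 2 (0.117) or 3 (0.0521) and with the 5 arrays alone (0.0645). Xist, the RNA that coats an inactive X, rose by 0.96 (SE 0.21, adjusted p = 0.0242), with -0.06 to 0.08 in the controls, against 1.05 and 0.87 in the mutants. Its call ended without control replicate 2 (0.0812) or 3 (0.0754), or without mutant replicate 2 (0.213) or 3 (0.0984).

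Hprt, the purine salvage gene used for selection of ESCs, had the largest difference of all genes. It read -4.47, -4.84 and -4.84 in the controls, against 0.82 and 0.92 in the mutants, 5.59 higher (SE 0.17, adjusted p = 8.94e-08). E14Tg2a, a subline of E14, is known to carry a deletion in Hprt, and the labels do not say whether these controls are that subline. Its neighbours showed little of this: Phf6 rose by 0.34 (SE 0.08, adjusted p = 0.0303), Fam122b by 0.59 (SE 0.10, adjusted p = 0.0079), and Ccdc160 and Plac1 differed by 0.12 and 0.60 without a call. Phf6 lost its call without any 1 array (0.0525 to 0.178) and Fam122b without mutant replicate 2 (0.0593) or 3 (0.0754). Of 9 Y-linked genes, Eif2s3y, a translation factor gene, fell by 4.18 (SE 0.11, adjusted p = 5.68e-08), the demethylase gene Uty by 3.12 (SE 0.13, adjusted p = 1.31e-06) and Uba1y by 0.64 (SE 0.12, adjusted p = 0.0114). Eif2s3y read 0.44 to 0.61 in the controls, against -3.73 and -3.54 in the mutants, while Kdm5d, Sry, Srsy, Usp9y, Zfy1 and Zfy2 differed by -0.05, 0.04, -0.01, 0.06, -0.48 and -0.06 without a call. Uba1y lost its call without mutant replicate 2 (0.122) or 3 (0.0613).

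**Figure D3:**
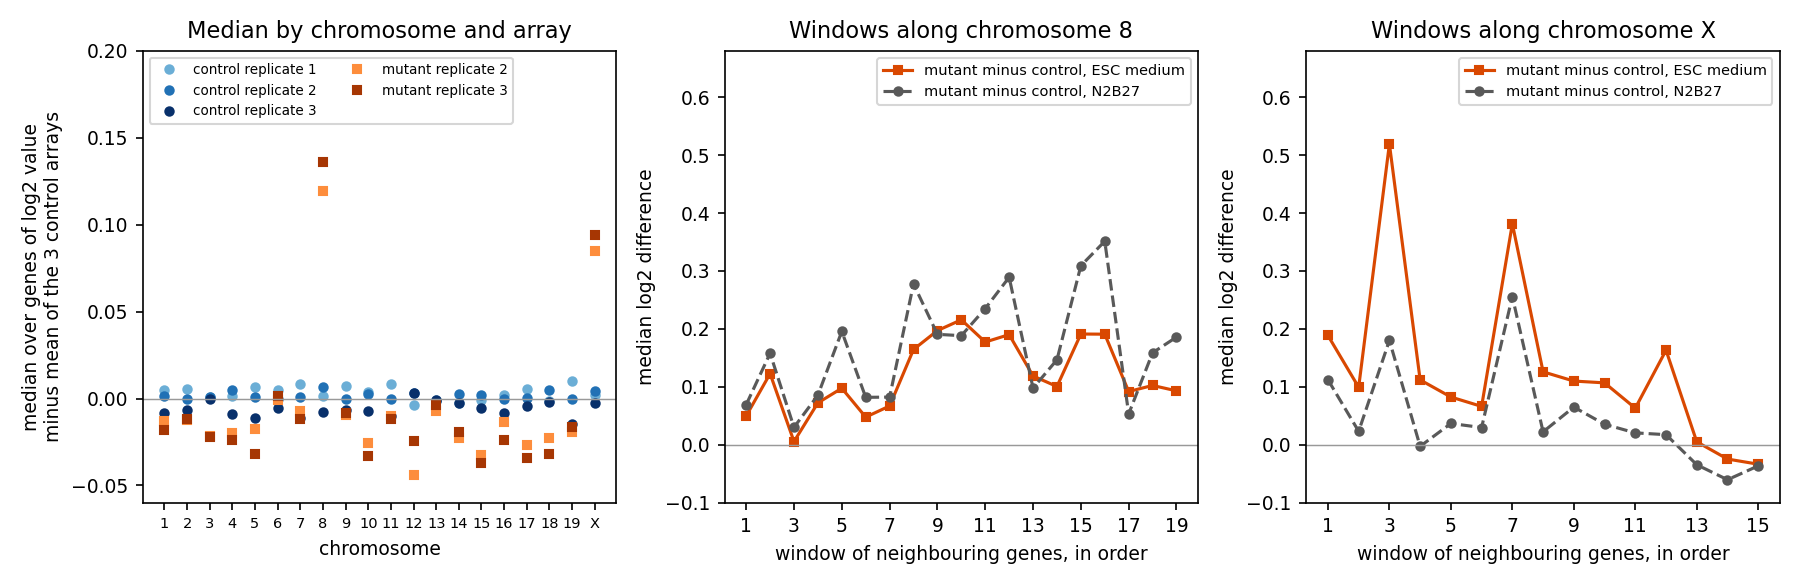
Left, the median over the genes of each chromosome of the log2 value minus the control mean, for each of the 5 arrays; centre and right, the median mutant minus control difference in windows of neighbouring genes along chromosomes 8 and X, in ESC medium (squares) and N2B27 (circles). Chromosome 8 lies above 0 in all 19 windows in both media, and the X has its highest values in the third and seventh windows.

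The mutant arrays differed from each other in genes of low oxygen and of the early embryo. Over all genes 7 were at least 1 apart between them, against 0 between control replicates 2 and 3, and 32 and 52 between control replicate 1 and these. Egln3, an oxygen-sensing hydroxylase gene, read -0.52 on mutant replicate 2 and 0.88 on replicate 3, with 0.53, 0.30 and 0.90 on the controls. Bhlhe40, a hypoxia-induced repressor gene, read -1.12 and 0.27, and Ndufa4l2, a mitochondrial gene induced by hypoxia, 0.23 and 1.58. Ddit4, an inhibitor gene of mTOR, read -0.67 and 0.37, and Aldoc and Pgm1, of sugar metabolism, -1.17 and -0.17, and -0.56 and 0.41.

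All 21 measured genes of glycolysis and hypoxia were higher on mutant replicate 3 than on replicate 2, against 51.6% of all genes. Control replicate 3 was likewise above control replicate 2 in 16 of these 21, against 46.7% of all genes. The list median relative to the control mean was -0.36 on mutant replicate 2 and 0.076 on replicate 3. Ndrg1 was its only called member, at 1.05 (SE 0.15, adjusted p = 0.00313), with -0.33 to 0.00 in the controls, against 0.58 and 1.12 in the mutants, and it was called without any 1 of the arrays. In the other direction, Gsta3, a glutathione transferase gene, read 1.68 on mutant replicate 2 and 0.57 on replicate 3, H2bc4, a histone gene, 2.00 and 1.17, Apom, a lipoprotein gene, 1.32 and 0.59, and Usp17lc 1.42 and 0.63. Apom rose by 0.93 (SE 0.16, adjusted p = 0.00917) and H2bc4 by 0.99 (SE 0.22, adjusted p = 0.0256) against control. Apom was not called with the 5 arrays alone (0.0597), nor H2bc4 (0.0772), which also lost its call without control replicate 2 (0.092) or 3 (0.0706), or without mutant replicate 2 (0.225).

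Across genes, replicate 3 minus replicate 2 of the mutant arrays correlated with the same difference of the control arrays at r = 0.250 and with that of the mutant arrays in N2B27 at r = 0.264. These are correlations across 19935 genes, which are not independent, and are given as descriptions. Which of the 3 mutant lines is on which array was not given, so a difference between lines, between cultures and between array runs cannot be told apart here.

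**Figure D4:**
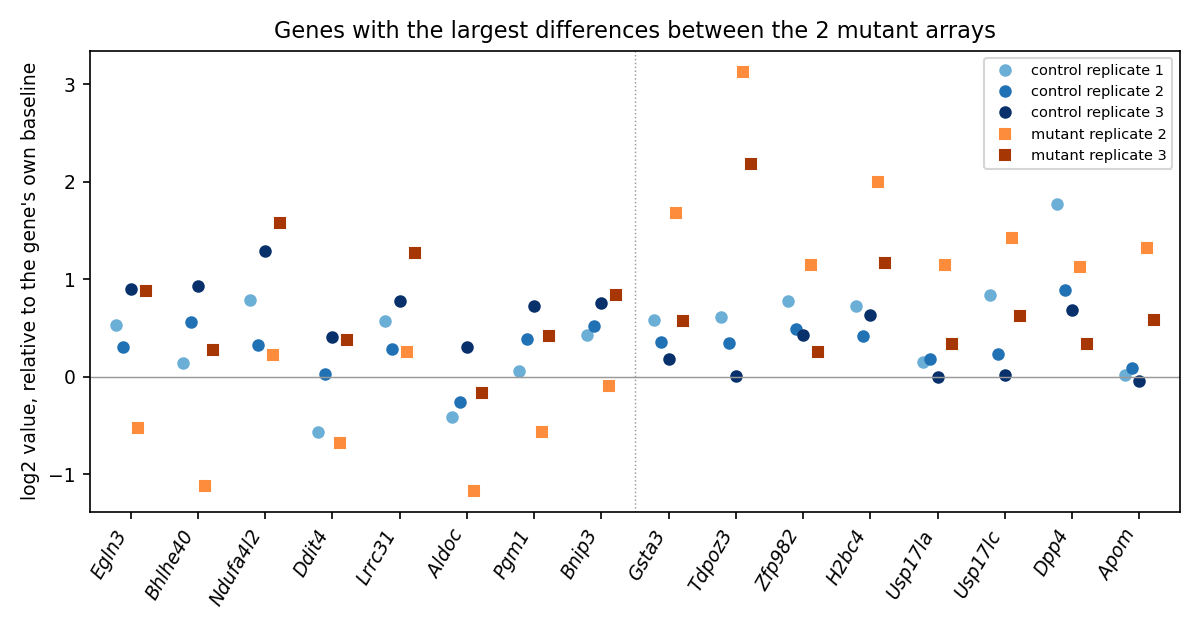
Log2 values, relative to each gene's own baseline, of the 8 genes most higher on mutant replicate 3 than on replicate 2 (left of the dotted line) and the 8 most lower (right), on all 5 arrays in ESC medium. On the left the control arrays are spread as well, with control replicate 3 the highest control in all 8 genes.

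The differences seen in ESC medium were set against those in N2B27, where the comparison shares no array with this one. The main fit, however, took a common spread per gene from the arrays of both media. The calls in both media, and their overlap, are therefore not independent. In N2B27, 817 genes were higher (4.1%) and 327 lower (1.64%), together 5.74%. Of the 1224 genes called in ESC medium, 266 were called the same way in N2B27, which is 21.7% of the calls in ESC medium and 23.3% of those in N2B27, and 23 were called the opposite way. For higher genes the overlap was 205, or 33.3% and 25.1%, and for lower genes 61, or 10.02% and 18.7%. On chromosome 8, 102 of the 150 genes higher in ESC medium were also called higher in N2B27, on the X 49 of 163, and outside chromosomes 8, X and Y 54 of 302. Among all genes tested, those called higher in N2B27 were 242 of 955 on chromosome 8 and 72 of 739 on the X. Outside chromosomes 8, X and Y they were 503 of 18232. Across all genes the differences in the 2 media correlated at r = 0.358, a description over genes.

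Many named genes had smaller differences in N2B27. The interaction of genotype with medium was called for 422 genes (2.12%). Named genes were largely chosen for their differences in ESC medium, which also enter the interaction. Its calls among them are therefore in part what such a choice gives. With the sample number as a block, the interaction was called for 657 genes, and 47 of the 48 named genes with a called interaction kept it. Krt8 was higher in mutant cells in N2B27, by 0.58 (adjusted p = 0.0113), with an interaction adjusted p of 7.99e-05. Pramel6 and Pramel7 differed by -0.06 and 0.13 there (interaction adjusted p = 1.25e-05 and 6.83e-05), and Prtg by -0.44 (4.25e-05). The interaction was also called for Id2 (0.0447), Tagln (0.0371), Cald1 (0.0322), Tpm1 (0.0499), Anxa3 (0.016), Anxa5 (0.0293), Cldn6 (0.0141), Epha1 (0.00507), Spic (0.00109) and Sycp1 (0.00843). It was not called for Acta2 (0.346), Thbs1 (0.162), Myl9 (0.123), Tcl1 (0.125, or 0.03 with the block), Dppa3 (0.687), Hormad1 (0.116) or Igf2 (0.865), nor for Nxf3 (0.997), Mid1 (0.645), Eif2s3y (0.984) or Hprt (0.296).

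Among the genes called higher in ESC medium, 86.5% were also above 0 in N2B27, with a median of 0.27 there against 0.56, and among those called lower 64.9% were also below 0, with -0.07 against -0.61. Outside chromosomes 8, X and Y these medians were 0.17 and -0.07 in N2B27. Members were chosen for their calls in ESC medium, so smaller values in the other medium are in part what such a choice gives. Xist had the larger difference in N2B27, with 0.96 in ESC medium and 4.08 in N2B27 (interaction adjusted p = 0.000981).

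**Figure D5:**
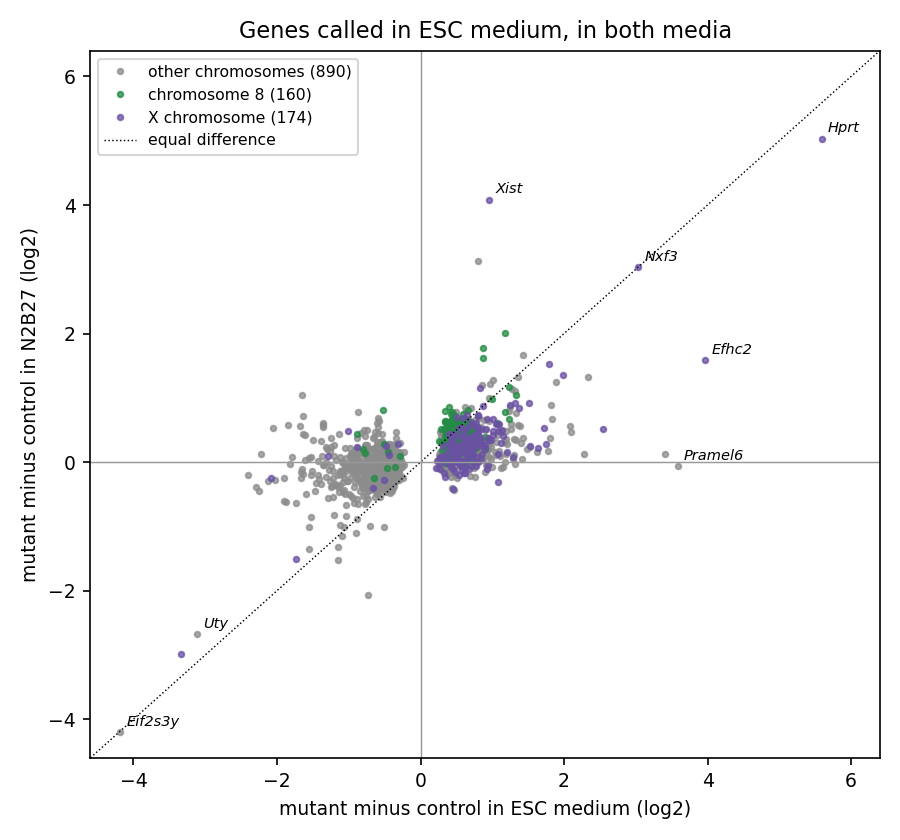
Mutant minus control difference of the 1224 genes called in ESC medium, in ESC medium (x axis, log2) and in N2B27 (y axis, log2), with chromosome 8 in green, the X in violet and other chromosomes in grey. Hprt, Nxf3, Uty and Eif2s3y lie near the line of equal difference, and Pramel6 lies near 0 in N2B27.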

How the data were processed

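RNA of mouse ESCs was measured on 11 one-colour Affymetrix arrays, 5 of them in ESC medium. The deposited values are log2 signals per transcript cluster. According to the submitters' processing notes, the authors used Affymetrix Expression Console 1.2 and its RMA method, which corrects background, scales arrays by quantiles and summarises probes. Log base 2 is the usual output of RMA and is stated nowhere. Values of a cluster are relative to its own baseline, which removes brightness. The method of centring is not stated in the labels or notes. A filter on dim probes, intensity-dependent scaling and a block for the array's slide could not be applied for this reason or for want of the slide.

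The platform annotation gave 1 symbol for 21780 of 28815 clusters, several for 1605 and none for 5430, and 21689 matched RefSeq GRCm38.p6. Clusters of a gene were averaged, giving 19935 genes, 998 of them with several clusters. Group means of all 11 arrays in 4 groups were fitted with limma 3.58.1 in R 4.3.3 (7 residual and 3.02 prior degrees of freedom), two-sided, with Benjamini-Hochberg adjustment over all genes and a threshold of 0.05. On data simulated with independent normal noise the fit recovered 92% of genes changed by 1 and 100% of genes changed by 2 on the log2 scale. These values do not cover smaller changes, such as the median called differences of 0.56 and -0.61. Noise shared between genes or arrays was not simulated.

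Deviations from group means of same-numbered control and mutant arrays correlated over genes at 0.256, 0.43 and 0.158 in N2B27, and at 0.0365 and 0.284 in ESC medium. In ESC medium only 2 pairs exist and pairing is not settled, and the labels state none. The main fit has no term for pairing, also in N2B27, and the sample number as a block is an alternative. With the block, 1669 genes were called in N2B27 in place of 1144, and 657 for the interaction in place of 422.

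Members and lists were chosen with earlier results of these data known. Genes named were the 15 largest called differences each way, up to 5 called members of a list (the 2 largest where none was called), up to 8 called genes each way on chromosomes 8 and X, all Y-linked genes, the 8 genes each way that differed most between the mutant arrays, and a set of genes of interest with the neighbours of Hprt and Bmpr1a. Other called list members, and uncalled members given for comparison, were chosen after their values were seen. A further 2885 genes were tested without being named: predicted genes, small RNAs, olfactory or vomeronasal receptors, and symbols with more than 1 locus. Trp53 is not analysed here. Promoters (15612 genes) and their letters come from RefSeq GRCm38.p6, and the CArG box and GGAATG were added to the searched motifs after values were seen. Alternatives were the 5 arrays alone, 2 other centrings, array weights, the sample number as a block, clusters tested alone, chromosomes 8, X and Y left out, robust moderation, and each array of ESC medium and mutant replicate 2 of N2B27 left out in turn.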

Additional observations from a re-analysis of the deposited data

Results flagged for a closer look

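For 48 of 179 named genes the interaction of genotype with medium had an adjusted p under 0.05 in limma, against 2.12% of all genes. Named genes were largely chosen for their differences in ESC medium, and these also enter the interaction. The calls therefore rest in part on that choice and are not independent support for a difference between the 2 media. The values given are the genotype difference of N2B27 less that of ESC medium, on the log2 scale, and a positive value for a gene that fell in ESC medium means a weaker fall, no fall or a rise in N2B27.

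Contractile genes had 2.35 for Tagln, 1.66 for Cald1 and 1.45 for Tpm1. Epithelial genes had 2.43 for Krt8, 1.83 for Krt18, 1.87 for Cldn6, 1.28 for Perp and 0.65 for Grhl2, and Krt8 and Perp were called higher in mutant cells in N2B27. Surface and matrix genes had 2.21 for Anxa3, 1.76 for Anxa5, 2.6 for Epha1, 0.74 for Efnb1, 1.81 for Prtg, 2.36 for Nt5e and 1.55 for Col1a1. Genes of signalling and the neural list had 1.79 for Id2, 1.32 for Bmp8b, 1.66 for Dusp6, 0.76 for Spred1 and 1.09 for Sox11. Among genes that rose in ESC medium, the value was -3.65 for Pramel6, -3.28 for Pramel7, -2.15 for Dnajc5g, -1.62 for Calcoco2, -1.17 for Spic, -1.09 for Sycp1, -1.06 for Hnf4a, -1.43 for Gstp3 and -0.92 for Nckap1l.

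On the X, genes that rose in ESC medium had -2.39 for Efhc2, -1.19 for Glod5, -2.03 for Magea4, -1.41 for Ripply1 and -0.57 for Phf6, and genes that fell had 1.5 for Cysltr1, 1.13 for Hs6st2 and 1.37 for Map7d3. The lower genes of chromosome 8 had 1.33 for Cpe, 0.92 for Kcnk1, 0.62 for Plat, 1.33 for Slc5a5 and 0.80 for Tmem59l. Membrane transporter and antigen presentation genes had 0.72 for Slc1a3, 0.71 for Slc43a1 and 1.11 for Tap1, and the respiratory chain gene Cox7b -0.44, the only 1 of the 48 to lose its call with the sample number as a block (adjusted p = 0.0679). Polg, which fell in both media, had -1.35, a larger fall in N2B27, and Xist, higher in mutant cells in both, had 3.13.

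Without mutant replicate 2 of ESC medium the interaction was called for 59 genes in place of 422. The cause of the differences was not tested.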

How the results depend on the processing

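The count of 1224 genes called in ESC medium was between 1189 and 1388 with the 5 arrays alone, either centring, clusters tested alone and robust moderation. Similar counts did not mean the same genes. Of the 1224, 953 were called in the same direction with the 5 arrays alone, which lost 21 of 134 named calls. With the centrings 1151 and 1154 were, and with clusters tested alone 1208. The last could change little, since 18937 of 19935 genes have a single cluster. Array weights gave 3138 calls in ESC medium, 2882 in N2B27 and 1782 for the interaction, with 24.2% of the ESC calls shared with N2B27 and 233 list members called. Leaving out chromosomes 8, X and Y gave 766 calls in ESC medium, 35.0% of them higher against 50.2% of all calls, with 610 in N2B27 and a share of 11.1%. Without mutant replicate 2 of N2B27 the counts were 1707 and 633 for the interaction, with a share of 18.6% and 151 list members.

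With 1 of the 5 arrays left out, the calls ranged from 304 to 1428 in ESC medium, 819 to 1251 in N2B27 and 59 to 564 for the interaction. The share ran from 21.7% to 25.7%, called list members from 45 to 138, the chromosome 8 median from 0.112 to 0.136, the X median from 0.0845 to 0.0984, and the median CpG number of genes called lower from 18.5 to 23. Of 134 named genes called, 57 kept the call without any 1 array and 77 lost it without at least 1. Differences of uncalled genes changed sign in these fits: Bnip3 from -0.67 to 0.27, Ccdc160 from -0.014 to 0.26, Ddit4 from -0.63 to 0.42, Dpp4 from -0.78 to 0.011, Egln3 from -1.10 to 0.31, Ldb3 from -0.11 to 0.00024, Lrrc31 from -0.29 to 0.73, Ndufa4l2 from -0.58 to 0.78, Pgm1 from -0.96 to 0.020, Sry from -0.098 to 0.17 and Zfp982 from -0.31 to 0.58. No direction of a named gene turned under any other alternative run.

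The labels do not tie the sample numbers to shared cultures. With the number as a replicate block, 1641 genes were called in ESC medium, 1669 in N2B27 (1144 without it) and 657 for the interaction, with a share of 26.1%. Of the named genes, the block ended the ESC medium calls of Col4a1 (0.0507) and Fgf17 (0.0545) and the interaction call of Cox7b, and added 8 calls in ESC medium, 17 in N2B27 and 17 for the interaction. The 5 arrays alone and the fit of single clusters give no value for N2B27, the interaction or the share.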
